A study of Mus musculus with 6 samples.

Results

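The mouse Hox genes of the Hoxa, Hoxb, Hoxc and Hoxd clusters were examined in embryonic stem (ES) cells and in FLICs, the name the labels give to differentiated cells made from ES cells. Members were all genes whose symbol is Hox, a cluster letter from a to d and a paralogue number, which gave 39 of the 22600 genes counted: 11 in Hoxa, 10 in Hoxb, 9 in Hoxc and 9 in Hoxd. The 6 RNA-seq libraries were untreated ES cells of wild-type genotype (n = 2), ES cells of TRF2-/- genotype given OHT for 3 days (n = 2), untreated wild-type FLICs (n = 1) and TRF2-/- FLICs given OHT for 3 days (n = 1). All had a C57BL/6 background strain and were plated for 96 h before RNA isolation. OHT is hydroxytamoxifen, a ligand used to switch on tamoxifen-dependent recombinases, and TRF2, the product of Terf2, is a protein that caps telomeres. Every OHT library carries the TRF2-/- label, so the agent and the loss of TRF2 cannot be told apart. The labels name neither the recombinase nor its promoter, and they do not say whether the ES cell libraries of a group are separate cultures. The spread behind each p-value is therefore that between libraries and may be technical.

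Hox genes encode homeodomain transcription factors that give cells a position along the body axis. Within a cluster the genes lie in the order of their paralogue numbers. In embryos the low-numbered genes are first expressed early and towards the head, and the high-numbered genes later and towards the tail. In limbs, genes of groups 9 to 13 of the Hoxa and Hoxd clusters pattern the segments from shoulder to digits. ES cells hold the clusters largely silent under Polycomb repression, and fibroblasts from different body sites keep different Hox patterns in culture.

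Total counts ran from 23534551 to 43965309 per library, so that a count of 0 allows up to 3 counts, or 0.0686 to 0.118 CPM, counting error only. Levels are given in counts-per-million (CPM) with library sizes scaled by TMM. Single members were ranked in FLICs by CPM per kb of the deposited gene length. Sums and shares over clusters and paralogue groups are in plain CPM unless given per kb. Terf2 had 554 and 732 counts in untreated ES cells, 9 and 10 with OHT, 268 in untreated FLICs and 5 with OHT, as the labels say. Without OHT, 26.2% of all genes tested were called higher in FLICs and 28.7% lower (edgeR, adjusted p under 0.05). The marker counts below are to be read beside these shares, and small counts near them say little about lineage. All 10 pluripotency markers were lower in FLICs, and 11 of 13 tested mesenchymal markers were higher. Among those markers Col3a1 was at 422 CPM in untreated FLICs and Prrx1, a transcription factor of limb and craniofacial mesenchyme, at 27.1 CPM, while Thy1 and Pdgfra were lower than in ES cells. Markers of other lineages went in different directions in untreated FLICs. Smooth muscle markers were higher in 4 of 6, Acta2 among them at 5940 CPM, and lower in 1 (Des). Endothelial and epithelial markers were each higher in 0 and lower in 3 of 5 tested. Blood markers were higher in 1 and lower in 2 of 3 tested. Of 5 tested endoderm markers 3 were higher, Foxa2 among them at 66.8 CPM, and 2 were lower (Sox7 and Sox17). Of 6 tested neural markers 2 were higher, Pax6 (36.1 CPM) and Nes, and 4 were lower (Sox1, Map2, Tubb3 and Stmn2). A mixture of cell types and a single mixed state cannot be told apart in these bulk libraries.

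The Hoxa cluster spans 105.3 kb of chromosome 6 on GRCm38 (chr6:52155590-52260880, minus strand). The Hoxb cluster spans 173.9 kb (chr11:96194316-96368256, plus strand), Hoxc 115.8 kb (chr15:102921103-103036852, plus strand) and Hoxd 96.8 kb (chr2:74668310-74765142, plus strand). In the GENCODE M21 annotation 11 members overlap another Hox gene on the same strand. Hoxa3 overlaps Hoxa4, Hoxa5 and Hoxa6, Hoxc5 overlaps Hoxc6, Hoxc8, Hoxc9 and Hoxc10, and Hoxd3 overlaps Hoxd4, so the counts of these genes may share reads. The libraries were made with a stranded kit, but whether counting used strand is not stated, and the noncoding and antisense genes of the clusters were not analysed here. If it did not, reads of Hoxa11 and of its antisense transcript cannot be told apart.

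Promoters are printed for the members between which the contrast in FLICs was widest, namely Hoxa9, Hoxa10 and Hoxa11, the most abundant per kb, and their Hoxd counterparts of the same paralogue numbers, which were near 0. Each is the RefSeq window of 250 bases before to 50 bases after a transcription start, on GRCm38.p6, and where RefSeq lists several starts the one nearest to the 3′ end of the gene was taken. Capitals mark CpG dinucleotides, the substrate of DNA methylation and the base composition that marks Polycomb-bound promoters. Coordinates are chr6:52227321-52227620 for Hoxa9, chr6:52234890-52235189 for Hoxa10 and chr6:52245761-52246060 for Hoxa11, all on the minus strand. They are chr2:74697513-74697812 for Hoxd9, chr2:74691641-74691940 for Hoxd10 and chr2:74682073-74682372 for Hoxd11, all on the plus strand.
Hoxa9: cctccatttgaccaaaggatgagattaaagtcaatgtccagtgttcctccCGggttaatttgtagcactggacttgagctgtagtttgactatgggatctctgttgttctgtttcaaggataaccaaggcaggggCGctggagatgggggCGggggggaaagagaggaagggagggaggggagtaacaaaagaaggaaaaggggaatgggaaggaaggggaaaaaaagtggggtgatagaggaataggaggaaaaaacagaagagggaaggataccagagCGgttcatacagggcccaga
Hoxa10: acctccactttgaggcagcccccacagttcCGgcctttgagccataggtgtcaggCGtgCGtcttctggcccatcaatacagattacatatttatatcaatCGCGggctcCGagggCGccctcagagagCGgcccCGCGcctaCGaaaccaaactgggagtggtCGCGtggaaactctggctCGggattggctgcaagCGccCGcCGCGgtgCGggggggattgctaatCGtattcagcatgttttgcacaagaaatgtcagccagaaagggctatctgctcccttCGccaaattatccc
Hoxa11: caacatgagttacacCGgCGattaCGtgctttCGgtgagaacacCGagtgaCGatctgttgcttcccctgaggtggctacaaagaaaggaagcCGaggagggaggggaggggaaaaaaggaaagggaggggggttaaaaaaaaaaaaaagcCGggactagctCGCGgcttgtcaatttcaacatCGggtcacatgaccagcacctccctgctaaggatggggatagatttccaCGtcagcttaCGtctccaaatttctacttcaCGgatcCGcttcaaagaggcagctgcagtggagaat
Hoxd9: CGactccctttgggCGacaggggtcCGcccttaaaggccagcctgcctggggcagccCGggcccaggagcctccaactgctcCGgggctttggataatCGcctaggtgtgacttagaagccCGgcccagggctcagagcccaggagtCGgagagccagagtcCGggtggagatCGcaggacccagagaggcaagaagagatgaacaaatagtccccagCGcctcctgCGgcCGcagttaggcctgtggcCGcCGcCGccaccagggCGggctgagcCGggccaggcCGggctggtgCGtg
Hoxd10: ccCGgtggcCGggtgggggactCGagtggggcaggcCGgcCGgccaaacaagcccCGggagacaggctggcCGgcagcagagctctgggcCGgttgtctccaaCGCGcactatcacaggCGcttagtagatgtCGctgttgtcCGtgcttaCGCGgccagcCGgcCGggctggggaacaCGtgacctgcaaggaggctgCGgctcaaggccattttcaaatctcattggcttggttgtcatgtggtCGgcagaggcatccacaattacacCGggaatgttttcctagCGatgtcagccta
Hoxd11: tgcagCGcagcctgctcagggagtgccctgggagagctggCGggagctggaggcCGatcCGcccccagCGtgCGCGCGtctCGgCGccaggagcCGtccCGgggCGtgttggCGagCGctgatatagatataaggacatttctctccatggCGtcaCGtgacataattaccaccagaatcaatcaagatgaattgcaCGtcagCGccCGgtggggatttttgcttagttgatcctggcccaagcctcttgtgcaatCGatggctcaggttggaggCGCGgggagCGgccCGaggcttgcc

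The Hoxa windows held 4 CpGs (Hoxa9), 21 (Hoxa10) and 15 (Hoxa11), and the Hoxd windows 20 (Hoxd9), 22 (Hoxd10) and 25 (Hoxd11). RefSeq windows were matched for 22 of the 39 members. Their median was 17.5 CpGs, against 7 over all 32851 windows of that length. The 9 matched members with at least 1 CPM in untreated FLICs had a median of 15 and a range of 4 to 29, and the other 13 had a median of 20 and a range of 4 to 45, so the ranges overlapped. A TATA box, searched as TATAAA on both strands, was present in 4 of the 22 windows (18.2%) and in 13.6% of all windows. TGATNNAT, a composite site of Pbx and Hox proteins, was also present in 4 of the 22 (18.2%) and in 8.85% of all windows. These matches describe letters only, and no methylation or binding was measured.

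**Figure D1:**
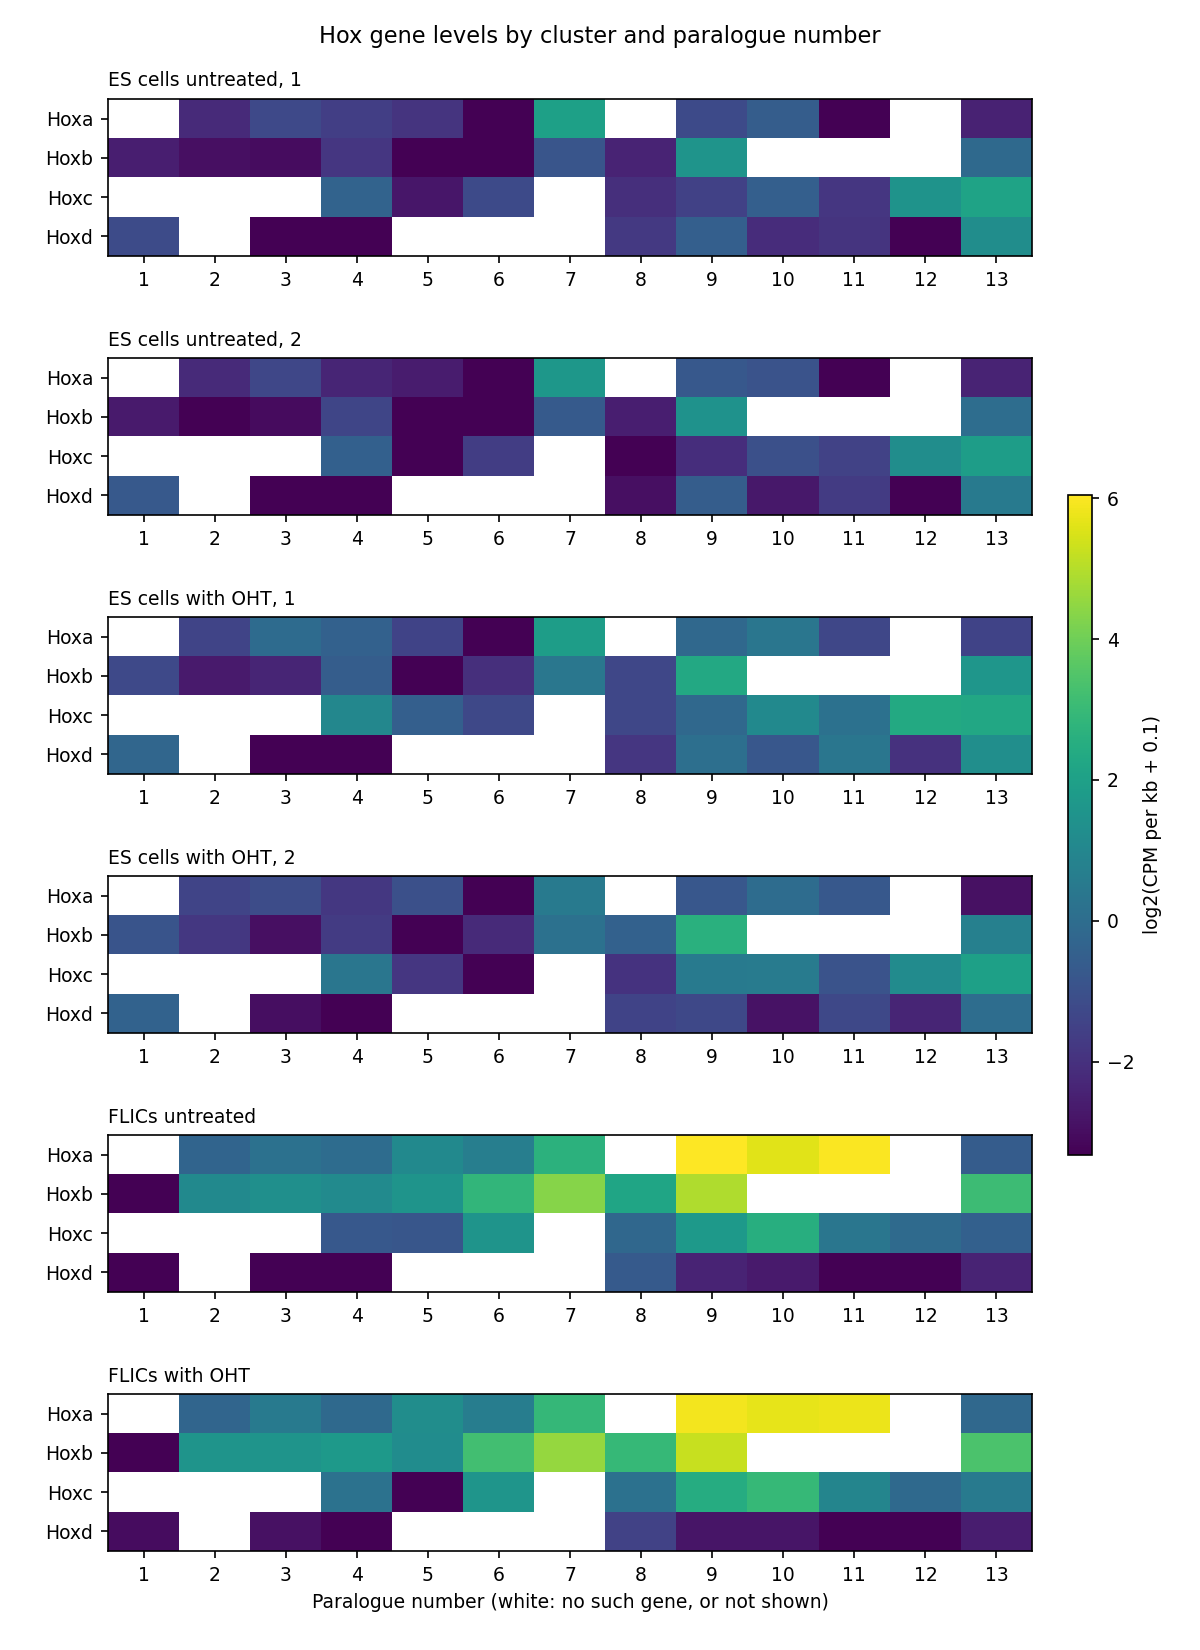
Levels of Hox genes in each of the 6 libraries, by cluster (rows) and paralogue number (columns), as log2(CPM per kb + 0.1) on a colour scale. White cells are numbers with no gene in that cluster or not shown. The brightest cells in FLICs are Hoxa9, Hoxa10, Hoxa11 and Hoxb9, and the Hoxd row is dark there.

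In FLICs the Hox genes were expressed from the Hoxa and Hoxb clusters and at much lower levels from Hoxc, while Hoxd was near silent. Summed over the 39 members, Hox transcripts reached 23.8 and 19.8 CPM in untreated ES cells, 44.5 and 28.2 CPM in ES cells with OHT, 265 CPM in FLICs left untreated and 276 CPM in those with OHT. The sum was therefore 12.2-fold higher in FLICs without OHT and 7.59-fold higher with OHT. Hoxa contributed 191 CPM (71.9% of Hox CPM) in untreated FLICs and 180 CPM (65.5%) with OHT, and Hoxb 60.0 CPM (22.6%) and 75.3 CPM (27.3%). Hoxc followed with 14 CPM (5.26%) and 19.5 CPM (7.07%). Hoxd held 0.710 CPM (0.268%) and 0.458 CPM (0.166%), less than in any of the 4 ES cell libraries (2.63 to 6.15 CPM).

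Paralogue groups 9 to 11 carried 78.0% of Hox CPM in untreated FLICs and 74.5% with OHT (207 and 205 CPM). Groups 1 to 8 carried 18.5% and 21.2%. In ES cells the distribution was different: groups 9 to 11 summed to 4.75 ± 0.354 CPM (SD, n = 2) of 21.8 ± 2.83 CPM when untreated, and groups 12 and 13 to 8.68 ± 1.29 CPM. At least 1 CPM was reached by 21 members in untreated FLICs and 22 with OHT, by 6 in each untreated ES cell library, and by 12 and 9 in the ES cell libraries with OHT. The 21 members of at least 1 CPM in both FLICs libraries were 8 of Hoxa, 9 of Hoxb, 4 of Hoxc and none of Hoxd. In all 6 libraries 13 members stayed under 1 CPM (Hoxa2, Hoxa4, Hoxa13, Hoxb1, Hoxc5, Hoxc8, Hoxd1, Hoxd3, Hoxd4, Hoxd8, Hoxd9, Hoxd10 and Hoxd12), with a highest value of 0.998 CPM for Hoxd9. Hoxd4 had no count in any library.

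Per kb, the order of the top 7 members was the same in both FLICs libraries. Hoxa9 led with 65.5 CPM per kb without OHT and 58.6 with OHT, followed by Hoxa11 with 63.2 and 54.0 and Hoxa10 with 49.4 and 51.2. Hoxb9 stood at 30.2 and 38.1, Hoxb7 at 20.0 and 23.4, Hoxb13 at 8.38 and 10.5 and Hoxb6 at 7.03 and 9.06 CPM per kb. With 1 library per condition there is no replicate spread to separate neighbours in this order. The next ranks were held by Hoxa7, Hoxc10 and Hoxb8, whose order differed between the libraries. Along Hoxa the level per kb was therefore low from Hoxa2 to Hoxa7 and high from Hoxa9 to Hoxa11, and dropped to 0.564 and 0.796 CPM per kb at Hoxa13.

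**Figure D2:**
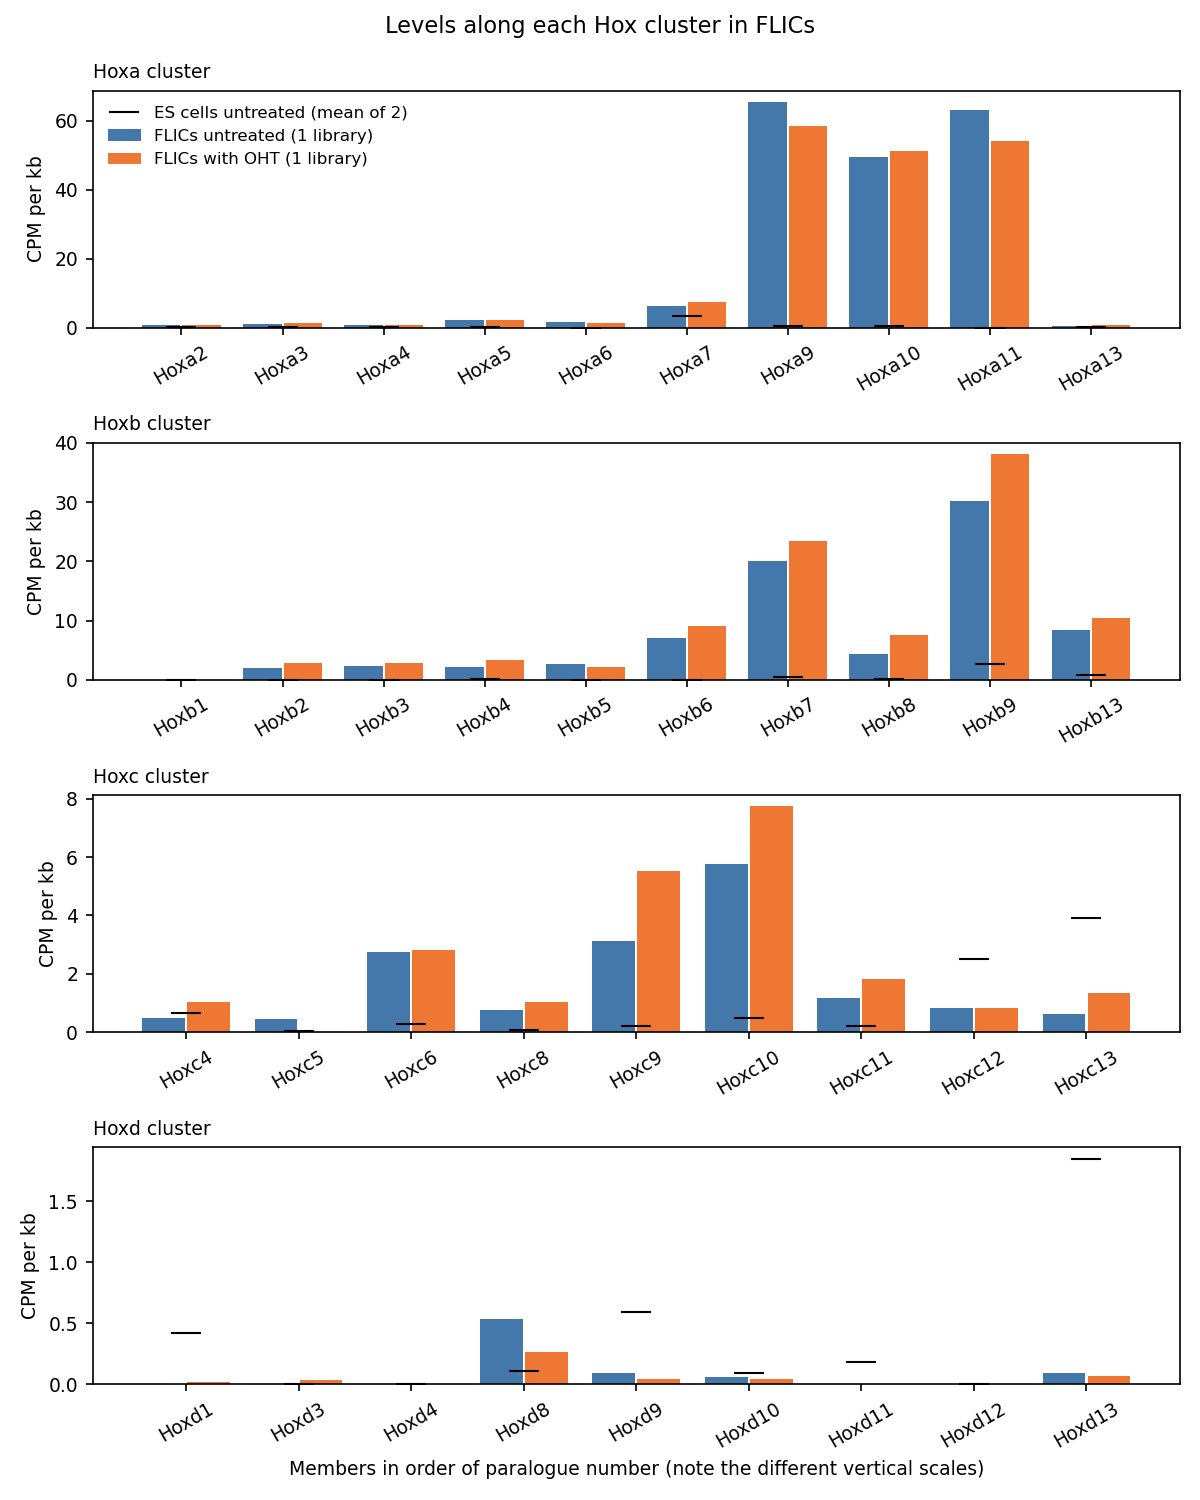
CPM per kb of Hox genes in untreated FLICs and FLICs with OHT (bars, 1 library each), with the mean of the 2 untreated ES cell libraries as a black mark and a separate vertical scale for each cluster. Hoxa9 to Hoxa11 exceed 49 CPM per kb in both FLICs libraries, and the ES cell marks stand above both bars at Hoxc12, Hoxc13 and Hoxd13, among others.

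Untreated FLICs were compared with untreated ES cells by edgeR's quasi-likelihood test over all 15535 genes that passed the count filter, with Benjamini-Hochberg adjustment and calls at 0.05. The filter passed 36 members, and Hoxd3, Hoxd4 and Hoxd12 were not tested. It used the same levels that are compared here. Hoxa6 and Hoxb5, with no count in ES cells, passed on FLICs alone, and Hoxb1, with no count in FLICs, on ES cells alone. The calls and the median below are therefore partly set by the filter, which was applied to all genes alike. Without it 26 of 38 members were called, 23 higher and 3 lower, against 46.3% of 18591 genes. Of the 36, 20 were higher in FLICs, 3 were lower and 13 did not pass the test. Between these cell types 54.9% of all genes tested were called, 26.2% higher and 28.7% lower, so a call alone says little about Hox genes, and the members that passed the filter had a median log2 fold change of 3.21 against -0.11 over all genes. By cluster, 6 of 11 Hoxa members rose, 9 of 10 Hoxb members, 5 of 9 Hoxc members and none of the 6 tested Hoxd members. The members that fell were Hoxc13, Hoxd1 and Hoxd13. A single FLICs library enters this contrast and is assumed to vary like the ES cell libraries.

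Hoxa9 (ENSMUSG00000038227), a factor of trunk and proximal limb patterning and of blood progenitors, had 0.265 and 0.399 CPM in untreated ES cells, 0.655 and 0.392 with OHT, and 53.3 and 47.6 in the FLICs libraries without and with OHT. The FLICs libraries lay far above all 4 ES cell libraries, with a log2 fold change of 7.29 without OHT (SE 0.32, adjusted p = 5.27e-05, edgeR). Hoxa10 (ENSMUSG00000000938), which acts in the lumbar spine, femur and uterus, had 0.728 and 0.532 CPM in untreated ES cells, 1.5 and 1.14 with OHT, and 62.1 and 64.4 CPM in the FLICs libraries without and with OHT. Its log2 fold change without OHT was 6.63 (SE 0.27, adjusted p = 4.22e-05, edgeR). Hoxa11 (ENSMUSG00000038210), known for forearm and lower-leg patterning, had 0 counts in both untreated ES cell libraries, 0.281 and 0.470 CPM in ES cells with OHT, and 59.4 and 50.7 CPM in FLICs. Against a floor of 3 counts over the untreated ES cell group it was at least 1341-fold higher in untreated FLICs.

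Around this block the Hoxa cluster was weakly expressed. Hoxa7 was at 6.14 CPM in untreated FLICs and 7.32 with OHT, but ES cells already held 3.81 and 2.95 CPM untreated and 3.53 and 1.33 CPM with OHT. It was not called without OHT (log2 fold change 0.86, adjusted p = 0.205, edgeR). Hoxa5, which acts in neck, lung and upper thorax, rose from 0.132 and 0.0532 CPM in untreated ES cells to 1.70 in untreated FLICs, and stood at 0.218 and 0.314 CPM in ES cells and 1.88 in FLICs with OHT. Hoxa6 had no count in the 4 ES cell libraries and 1.05 and 1.01 CPM in FLICs. Without OHT it was at least 23.7-fold higher. Hoxa3, a factor of pharyngeal arch organs, was at 0.430 and 0.399 CPM in untreated ES cells, 1.15 and 0.470 with OHT, and 1.36 and 1.76 in FLICs, and was not called (adjusted p = 0.0529, edgeR). Hoxa13, a factor of hand and foot, was not called at 0.648 CPM in untreated FLICs (adjusted p = 0.0566, edgeR).

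The Hoxb cluster was higher in FLICs along its whole length except at its 3′ end. Hoxb9, which patterns the rib cage, had 2.09 and 1.97 CPM in untreated ES cells, 3.68 and 4.51 with OHT, and 22.7 and 28.6 in FLICs. Its log2 fold change without OHT was 3.48 (SE 0.22, adjusted p = 0.000147, edgeR). Hoxb7 had 0.298 and 0.346 CPM in untreated ES cells, 0.780 and 0.667 with OHT, and 13 and 15.2 CPM in FLICs (log2 fold change without OHT 5.31, SE 0.28). Hoxb13, the 5′-most member and a factor of tail, hindgut and prostate, had 0.695 and 0.798 CPM in untreated ES cells, 2.50 and 1.37 with OHT, and 7.19 and 8.97 in FLICs (log2 fold change without OHT 3.26, SE 0.39). It lies 79.1 kb beyond Hoxb9, counted between 3′ ends.

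Hoxb6 and Hoxb5 had no count in untreated ES cells. Hoxb6 was at 0.0936 and 0.0784 CPM in ES cells with OHT and 4.72 and 6.09 CPM in FLICs. Without OHT it was at least 107-fold higher. Hoxb5 had no count in ES cells with OHT either, and 2.22 and 1.81 CPM in FLICs, so that it was at least 50.2-fold higher without OHT. Hoxb8 was at 0.0662 and 0.0532 CPM in untreated ES cells, 0.218 and 0.470 with OHT, and 3.21 and 5.58 in FLICs. The anterior members were called too. Hoxb2, a hindbrain factor, had 0.0331 and 0 CPM in untreated ES cells, 0.0624 and 0.196 with OHT, and 2.19 and 2.97 in FLICs. Hoxb3 had 0.0331 and 0.0266 CPM in untreated ES cells, 0.125 and 0.0392 with OHT, and 3.15 and 3.61 in FLICs, and Hoxb4, which acts in neck vertebrae and blood stem cells, had 0.132 and 0.213, 0.437 and 0.157, and 1.61 and 2.47 CPM in the same order. Hoxb1, the marker of the fourth hindbrain segment, had no count in either FLICs library and 0.0532 to 0.392 CPM in the ES cell libraries.

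In the Hoxc cluster the middle members rose and the 5′ end did not. Hoxc10, a hindlimb and lumbar gene, had 0.629 and 0.399 CPM in untreated ES cells, 2.15 and 1.41 with OHT, and 5.90 and 7.94 in FLICs (log2 fold change without OHT 3.53, SE 0.40, adjusted p = 0.001, edgeR). Hoxc9, which acts in thoracic spinal cord and ribs, had 0.199 and 0.106, 0.624 and 1.02, and 2.44 and 4.30 CPM in the same order (log2 fold change without OHT 4.0, SE 0.52). Hoxc6 and Hoxc11 were at 1.94 and 1.08 CPM in untreated FLICs and 1.99 and 1.67 with OHT. In ES cells Hoxc6 had 0.232 and 0.160 CPM untreated and 0.218 and 0 with OHT, and Hoxc11 had 0.166 and 0.240 untreated and 0.936 and 0.392 with OHT. Hoxc4 was not called, with 0.563 and 0.506 CPM in untreated ES cells, 1.53 and 0.941 with OHT, and 0.401 and 0.846 in FLICs.

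Hoxc13, a gene of hair follicles and nails, went the other way. It had 4.17 and 3.54 CPM in untreated ES cells, 4.77 and 3.84 with OHT, and 0.617 and 1.30 in FLICs. The FLICs values lay below all ES cell values (log2 fold change without OHT -2.63, SE 0.37, adjusted p = 0.00233, edgeR). Its neighbour Hoxc12 had 2.25 and 1.94 CPM in untreated ES cells, 4.27 and 1.84 with OHT, and 0.710 and 0.686 in FLICs, and was not called without OHT (adjusted p = 0.0759, edgeR).

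The Hoxd cluster was near or at 0 in FLICs. Hoxd13, a digit and genital gene, had 2.38 and 1.38 CPM in untreated ES cells, 2.43 and 0.941 with OHT, and 0.0926 and 0.0686 in FLICs, which is 3 counts in each FLICs library (log2 fold change without OHT -4.29, SE 0.99, adjusted p = 0.0136, edgeR). Hoxd1 had 0.331 and 0.506 CPM in untreated ES cells, 0.749 and 0.667 with OHT, and 0 and 0.0229 in FLICs. Without OHT it was at least 4.62-fold lower in FLICs. Hoxd11 had 0.166 and 0.213 CPM in untreated ES cells, 1.19 and 0.314 with OHT, and no count in FLICs. Hoxd9 was at 0.0926 CPM in untreated FLICs and 0.0458 with OHT, against 0.314 to 0.998 CPM in ES cells. The best expressed member of the cluster in FLICs was Hoxd8, at 0.463 CPM untreated and 0.229 with OHT, from 15 and 10 counts.

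Of the 23 calls, 5 were lost when an ES cell library was left out. Hoxa2, Hoxc6 and Hoxc11 lost theirs when either untreated ES cell library was left out, and Hoxc8 and Hoxd1 without the second (adjusted p = 0.169 and 0.052). DESeq2 did not call Hoxa2, Hoxc8 and Hoxc11 (adjusted p = 0.133, 0.166 and 0.0927). Without the first or the second ES cell library with OHT, which enter only through the shared spread, more members were called. Hoxc12, Hoxd9 and Hoxd11 were then among the lower ones. The shares of all genes called in these fits are not given here.

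The same contrast between the cells given OHT used other libraries. There 18 members were higher in FLICs and 8 lower, against 57.7% of all genes called (28.4% higher and 29.3% lower), and the median over the 36 was 2.13 against -0.07 over all genes. These values are partly set by the count filter too. Higher in both contrasts were 17 members, and lower in both were Hoxc13, Hoxd1 and Hoxd13. Hoxa9, Hoxa10 and Hoxa11 had log2 fold changes of 6.47 (SE 0.31), 5.60 (SE 0.25) and 7.09 (SE 0.31). Hoxa7 was called higher only with OHT (log2 fold change 1.57, adjusted p = 0.0428, edgeR), and Hoxa2, Hoxc8 and Hoxc11 only without it. Hoxb1, Hoxc5, Hoxc12, Hoxd9 and Hoxd11 were called lower only with OHT. The test of the difference between the contrasts, given further on, called none of these. Untreated ES cells enter this contrast only through the shared spread. Without their first library Hoxd9 (adjusted p = 0.0506, edgeR) and Hoxc5 (0.069) were not called, and DESeq2 did not call Hoxb1 and Hoxc5 (adjusted p = 0.0885 and 0.118).

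No Hox gene was called for OHT in ES cells in the main fit, which ignores the replicate number. Of the 36 members 0 were called, against 83 of 15535 genes (0.534%; 0.521% higher and 0.0129% lower). Unadjusted, 15 had a p under 0.05, against 2841 of all genes, while DESeq2 called 3 (Hoxa11, Hoxb9 and Hoxc10). The values nevertheless lay on the upper side. In 23 of the 39 members both OHT libraries were above both untreated ones, and in 0 both were below. Among the 36 tested members this was 22 (61.1%), against 25.2% of all genes higher and 27.6% lower. The median log2 fold change was 1.19, against -0.01 over all genes. This median too covers only genes that passed the count filter. All 36 had a mean under 5 CPM in ES cells, and the 5607 genes with such a mean, a background chosen after seeing the data, were also more often higher (42.2%) than lower (10.5%), with a median of 0.45.

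Of the members with counts in every ES cell library Hoxb9 had the smallest p, at 2.09 and 1.97 CPM untreated and 3.68 and 4.51 with OHT (log2 fold change 1.01, SE 0.20, adjusted p = 0.115, edgeR). Hoxc10 had 0.629 and 0.399 CPM untreated and 2.15 and 1.41 with OHT (1.81, SE 0.37, adjusted p = 0.117, edgeR). Hoxa11 went from no count to 0.281 and 0.470 CPM, at least 8.24-fold higher (adjusted p = 0.0772, edgeR). Hoxc9 had an adjusted p of 0.119 (edgeR). In contrast Hoxa7, Hoxc13 and Hoxd13 had overlapping groups and log2 fold changes of -0.46, 0.16 and -0.14. Like Hoxb9, these 3 were among the members best expressed in ES cells. Whether overlap goes with level was not tested.

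The ES cell libraries with OHT differed from each other. The summed Hox level was 44.5 CPM in the first and 28.2 CPM in the second, and 26 members were higher in the first and 10 in the second. The untreated pair leaned the same way, with 23 members higher in the first library and 9 in the second, at sums of 23.8 and 19.8 CPM. The share of all genes that leaned so was not counted. Of the 36 members with a count in ES cells, the highest value fell in the first OHT library for 24 and the second for 10. It fell in the first untreated library for 2 and the second for 0. This split was not counted over all genes either. By cluster the first OHT library had 15.1 and the second 7.96 CPM for Hoxa, 15.1 and 9.68 for Hoxc and 6.15 and 2.63 for Hoxd. Hoxb alone was level, at 8.17 and 7.88 CPM, above 3.41 and 3.46 CPM in the untreated libraries. Left without its first OHT library the comparison called 11 members, 8 higher and 3 lower, and without its second 18 members, all higher. The members called lower without the first were Hoxa7, Hoxc6 and Hoxd13. These fits also called 40.2% and 28.7% of all genes.

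ES cell levels relative to FLICs varied widely between genes, among Hox genes and among markers of FLICs. The summed Hox level of untreated ES cells was 8.21% of that of untreated FLICs, with 10.4% for Hoxb13, 8.94% for Hoxb9, 1.01% for Hoxa10, 0.623% for Hoxa9 and 0 for Hoxa11. Of the smooth muscle markers, Acta2 was at 0.0131%, Tagln at 0.163% and Myl9 at 6.69%. Of the mesenchyme markers, Prrx1 was at 0, Col3a1 at 0.0102%, Vim at 5.83% and Fn1 at 40%. With OHT the shares were 13.2% for the Hox sum, 14.3% for Hoxb9, 0.0259% for Acta2, 0.0141% for Col3a1 and 21.5% for Fn1, and Prrx1 had no count in any ES cell library. The smooth muscle list summed to 14.8 and 15.8 CPM in untreated ES cells and 20.5 and 33.2 CPM with OHT, and the endoderm list to 2.52 and 2.45 CPM and 4.84 and 3.92 CPM. No smooth muscle, endoderm or mesenchyme marker was called with OHT in ES cells. The epithelial marker Krt18 was called, from 15.4 and 18.5 CPM untreated to 43.7 and 42 CPM with OHT (log2 fold change 1.34, SE 0.16, adjusted p = 0.0414, edgeR). The part of these markers' cells in the Hox values was not tested.

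**Figure D3:**
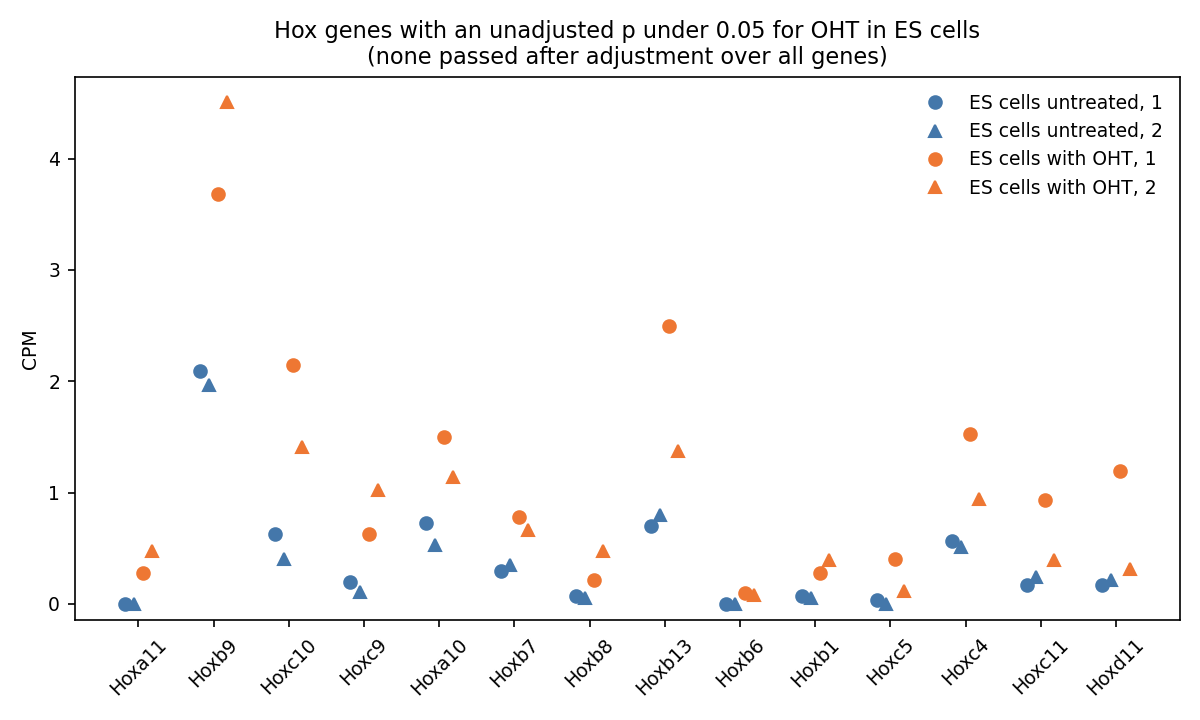
CPM in each of the 4 ES cell libraries for 14 Hox genes with an unadjusted p under 0.05 for OHT (edgeR), ordered by p. In each gene plotted both OHT libraries (orange) lie above both untreated libraries (blue), and no gene passed after adjustment over all genes.

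The FLICs libraries with and without OHT had similar Hox profiles. With 1 library per condition there is no test, and no member of at least 1 CPM on average differed by at least 2-fold on log2(CPM + 1), against 62 of 11789 genes (0.526%; 0.424% higher and 0.102% lower). Of the 21 such members 16 were higher with OHT (76.2%), against 56.4% of all genes, with a median difference of 0.22 against 0.03. The ratio with over without OHT had a median of 1 in the 8 Hoxa members, from 0.855 to 1.30, of 1.26 in the 9 Hoxb members, from 0.813 to 1.74, and of 1.45 in the 4 Hoxc members, from 1.02 to 1.76.

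The most abundant members were lower or level: Hoxa11 had a ratio of 0.855 (95% exact interval 0.804 to 0.909, counting error only), Hoxa9 of 0.894 (0.838 to 0.953) and Hoxa10 of 1.04 (0.979 to 1.10). Hoxb9 had a ratio of 1.26 (1.15 to 1.38). Hoxb8 went from 3.21 to 5.58 CPM, a ratio of 1.74 (1.38 to 2.21), and Hoxc9 from 2.44 to 4.30 CPM, a ratio of 1.76 (1.35 to 2.32). Across the 21 members the interval lay above 1 for 10 (7 of Hoxb and 3 of Hoxc) and below 1 for 2 (Hoxa9 and Hoxa11). How many of all genes had an interval that excluded 1 was not counted. The ES cell pairs spread wider than counting error (chi-square per degree of freedom 13.2 and 66.3), which these intervals leave out. The counts are therefore no test of OHT on Hox genes. Just under the 1 CPM mean, Hoxc13 had 20 counts without and 57 with OHT, a ratio of 2.11 (1.25 to 3.71). Hoxc5, which overlaps 4 neighbours in the annotation, had 10 counts without OHT and 0 with OHT. FLICs markers moved as well: the smooth muscle list summed to 7180 CPM without and 9530 CPM with OHT, the mesenchyme list to 12500 and 16000 CPM, and Pou5f1, a pluripotency factor, was at 80.9 and 47.3 CPM. The part of these shifts in the Hox ratios was not tested.

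The response to OHT in FLICs was compared with that in ES cells by an interaction contrast in the same edgeR fit, added after seeing the data. It called 0 of the 36 members and 0 of 15535 genes. Of the 36, 4 had an unadjusted p under 0.05, and the smallest adjusted p was 0.638.

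**Figure D4:**
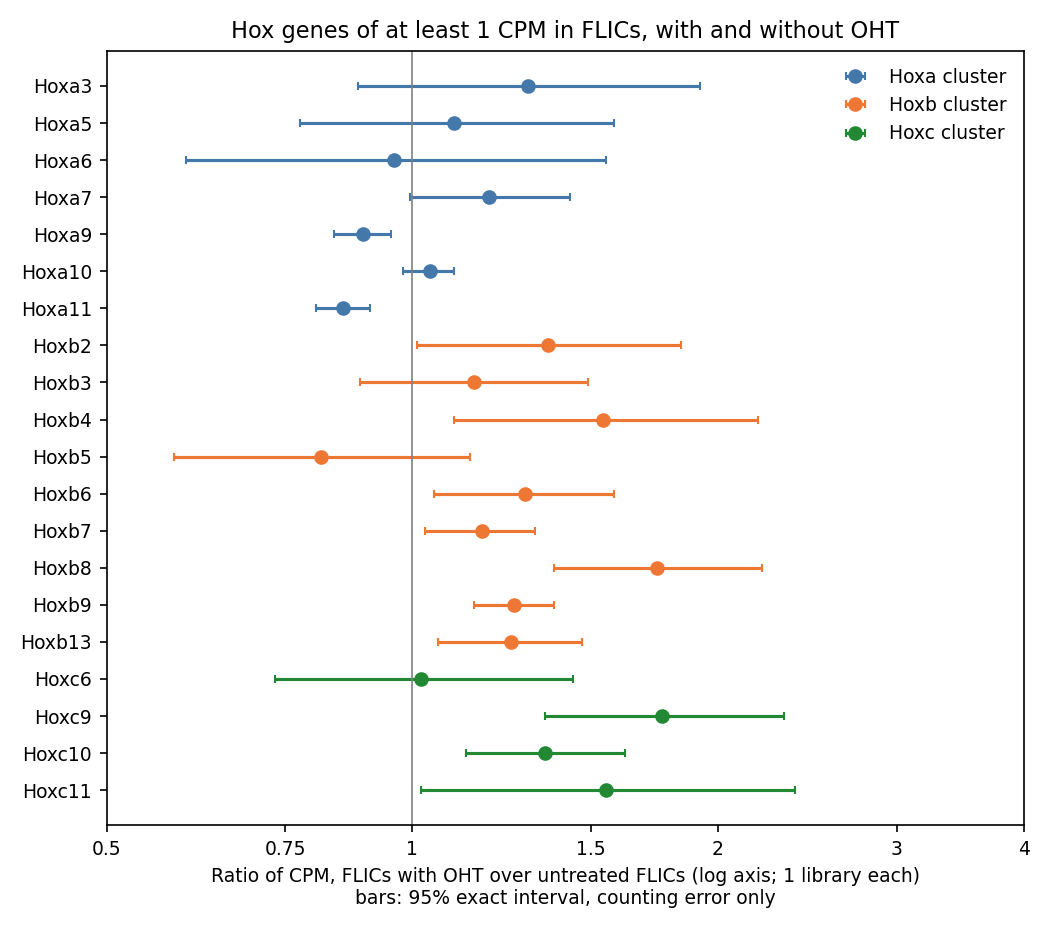
Ratio of CPM in FLICs with OHT over untreated FLICs for 20 Hox genes of at least 1 CPM on average, on a log axis, with 95% exact intervals that cover counting error only (1 library per condition). Hoxa9 and Hoxa11 lie below 1, and 8 of the 9 Hoxb genes and all 4 Hoxc genes lie above 1.

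Of 9 cofactor genes of the Meis, Pbx and Prep families, which bind DNA together with Hox factors, 6 were higher in untreated FLICs and 0 lower, with a median log2 fold change of 2.23. Over all genes this contrast called 26.2% higher and 28.7% lower, with a median of -0.11, and the counts of the lists that follow stand against the same shares. Pbx2, Pbx4 and Pknox1 were not called. Meis1 had 0.960 and 0.532 CPM in untreated ES cells and 44.0 in untreated FLICs (log2 fold change 5.90, SE 0.47). Meis2 had 2.09 and 1.86 against 96.3 CPM, and Meis3 2.45 and 2.40 against 17.7 CPM. The same number, 6 of 9, was higher with OHT.

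Of 5 tested Cdx and ParaHox genes, homeobox genes related to the clusters, 3 were lower and 0 higher. Cdx1, which activates Hox genes in the tail bud, had 44.8 and 35.7 CPM in untreated ES cells and 0 in untreated FLICs, a difference of at least 429-fold, and Cdx2 had 4.90 and 4.90 against 0.432 CPM. Of 17 tested retinoic acid genes 5 were higher and 3 lower, a share of higher genes near that over all genes (26.2%). Cyp26b1, which degrades retinoic acid, was at 0 in both untreated ES cell libraries and at 10.8 CPM in untreated FLICs, at least 243-fold higher, and Rdh10, which makes its precursor, 3.44 and 3.75 against 18.9 CPM. Aldh1a2, the main retinoic acid synthase of the embryonic trunk, fell from 2.75 and 3.33 to 0.0617 CPM, and the binding protein Crabp1 from 11.9 and 11.9 to 2.25 CPM.

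Of 13 tested genes next to the clusters 2 were higher and 8 lower, against 26.2% and 28.7% of all genes, a difference that was not tested. Evx1, a homeobox gene beyond Hoxa13, had 4.53 and 3.62 CPM in untreated ES cells and 0.309 in untreated FLICs. Near Hoxb, Calcoco2, an autophagy receptor, had 94.8 and 145 against 0.0309 CPM and Ttll6, a tubulin glutamylase, 8.64 and 10.4 against 0.185 CPM. Nfe2, a blood factor near Hoxc, had 3.21 and 3.14 against 0.556 CPM.

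Regulators of Hox chromatin were called in both directions. Of 30 Polycomb genes 10 were higher and 13 lower, against 26.2% and 28.7% of all genes. Epop and Jarid2, accessory subunits of Polycomb complex PRC2 that are abundant in ES cells, fell from 441 and 527 to 4.69 CPM and from 391 and 424 to 19.0 CPM. Bmi1 and Cbx8, subunits of the PRC1 complex, rose from 8.87 and 7.83 to 69.8 CPM and from 2.48 and 2.34 to 19.7 CPM. Cbx8 was at 6.24 and 5.80 CPM in ES cells with OHT (log2 fold change 1.32, adjusted p = 0.0557, edgeR). Of 14 genes listed as trithorax or H3K27 demethylase genes 1 was higher and 8 lower, against the same shares. Kmt2c, Ash2l, Wdr5 and Kmt2b fell by 1.32, 1.28, 1.24 and 1.17 on the log2 scale.

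Other positional genes were called in both directions, against 26.2% of all genes higher and 28.7% lower. Of 12 tested limb and girdle genes 8 were higher and 2 lower. Emx2, a scapula and urogenital factor, had no count in ES cells and 5.31 CPM in untreated FLICs (at least 120-fold higher), Tbx15 rose from 1.46 and 1.14 to 26.0 CPM and En1 from 1.62 and 0.878 to 19.4 CPM, while Tbx3, also an ES cell gene, fell from 222 and 229 to 5.80 CPM. Of 20 head mesenchyme and neural crest genes 8 were higher and 2 lower. The lower ones were Foxd3, which fell from 23 and 26.7 to 1.73 CPM, and Lhx6, from 1.26 and 1.44 to 0.463 CPM. Pax3 had 0.199 and 0.266 CPM in untreated ES cells and 51.0 in untreated FLICs, Dlx2 0.364 and 0.266 against 59.7, Dlx1 0.232 and 0.160 against 34.5, and Otx2, a forebrain gene, 0.331 and 0.186 against 6.48 CPM. Of 15 tested somite and trunk mesoderm genes 6 were higher and 7 lower. Osr1, a gene of intermediate and lateral mesoderm, had no count in ES cells and 32.2 CPM in untreated FLICs (at least 727-fold higher) and Foxf2, a gut and palate mesenchyme factor, 4.97 CPM (at least 112-fold higher). Mesp2, a somite segmentation gene, had 0.993 and 1.17 CPM in untreated ES cells and 0 in untreated FLICs (at least 11.8-fold lower), and Osr2 had 8.74 and 8.81 against 0.0617 CPM. Which cells of the bulk FLICs libraries carried these genes and which the Hox genes cannot be told apart.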

How the data were processed

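Per the labels' protocols, libraries came from column-purified RNA and a stranded total RNA kit. For 22600 genes in 6 libraries the deposited table gives raw read counts, as whole numbers, and a length per gene. Salmon, DESeq2 and GRCm38 appear in the submitters' processing notes, with no versions or roles. Multiples of 3 make up 77.6% of the lengths, which are thus mostly coding lengths. A symbol was found for 22509 genes, and 91 had none. The members and gene lists were chosen with earlier results of these data known. Named genes were all Hox members of at least 1 CPM in a library and, of each other list, up to 4 called members with the largest change.

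Counts were filtered by group with filterByExpr (15535 genes), where the smallest group held 1 library, so that a gene could pass on 1 library. They were scaled by TMM and fitted with edgeR 4.0.16 (limma 3.58.1, R 4.3.3) with 1 mean per group over 6 libraries, Benjamini-Hochberg adjustment and calls at 0.05. Its 2 residual degrees of freedom came from the ES cell pairs. The SE given with edgeR results is the absolute log2 fold change divided by the square root of the F statistic, as this test reports no SE. In simulated counts for FLICs against untreated ES cells (15535 genes), 89.3% of 4-fold and 98% of 8-fold changes were recovered, and 11% of calls were false. Changes were put into a small part of the genes, all above 1 CPM on average, while the real contrast called 54.9% of all genes. These shares therefore do not carry over to the real calls or to members under 1 CPM. The ES cell pairs differed by more than sampling noise, at a chi-square per degree of freedom of 13.2 (untreated) and 66.3 (OHT), and were counted as 2 samples each. OHT in FLICs was described with a pseudocount of 1 CPM. Alternatives were relative log expression scaling, total-count scaling, DESeq2 1.42.0, no count filter, other pseudocounts and minima, leaving out each ES cell library, and a replicate block. Some genes are not reported here by name, though counts over lists and sums include them.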

Additional observations from a re-analysis of the deposited data

How the results depend on the processing

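Among members called between FLICs and ES cells, or with an unadjusted p under 0.05 for OHT in ES cells, no gene changed direction under the alternatives run: of 514 values for single genes 466 kept their side of the threshold, 32 passed it and 16 lost it. The count of members called for OHT in ES cells was 0, and became 1 without the count filter, 3 with DESeq2 and 8 with the replicate number as a block. It rose when either OHT library was left out, but not when an untreated one was. The shares of all genes called under the alternatives in this paragraph are not given here, so these counts are no result about Hox genes. The labels do not say whether ES cell libraries of the same number belong together. Over the 15535 genes tested, the second minus the first library correlated at 0.437 between the untreated and the OHT pair. The 2 pairs thus shared part of their deviations, which the main fit ignores, and whether this is pairing was not tested. For FLICs against ES cells the block gave 32 calls, 26 higher and 6 lower, without OHT (23 in the fit without it). With OHT it gave 31 (26). Leaving out 1 ES cell library gave 18 to 33 and 24 to 32 calls. Computed per kb, Hoxa held 66.9% and 59.8% of Hox levels in FLICs without and with OHT, and Hoxb 27.3% and 32.8%; the cause is the length scaling itself. FLICs contrasts rest on 1 library per condition, and members under 3 counts cannot be told from 0.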
